A study of Mus musculus with 16 samples.

Results

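Finasteride blocks steroid 5-alpha-reductase, the enzyme that turns testosterone into dihydrotestosterone, and its effect on the prostate of wild-type mice was read here from poly-A RNA sequencing of 5 finasteride libraries and 3 vehicle libraries. These are 8 of the 16 libraries in the study. Both groups are +/+ at the gene that the study varied, come from the strain labelled hybrid 129/SvImJ and C57Bl/6J, and were 12 months old. The other 8 libraries (3 vehicle, 5 finasteride) come from mice of the same strain and age that are homozygous mutant (-/-) for that gene; they served to estimate the spread and to test whether the drug effect differed between genotypes. The drug's dose, route and duration, the content of the vehicle, the prostate lobe and whether each library is a separate animal are not given in the sources used here, so the p-values measure only the spread between these libraries. Genes were kept where the mean log2 value over all libraries was at least 3.32, which left 16506 of the 29535 in the table.

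Dihydrotestosterone is a more potent androgen than testosterone, and the prostate makes it locally. Luminal epithelial cells of the prostate depend on androgen for the synthesis and secretion of seminal fluid proteins, a task that loads the endoplasmic reticulum with client protein. When folding in that compartment is disturbed, separate sensors respond: PERK raises ATF4 and its targets, while ATF6, and IRE1 with XBP1, raise chaperones and the degradation machinery. A related program, the heat shock response, is driven by HSF1 in the cytosol. Androgen withdrawal is known for raising other genes, Clu among them, and for regression of the gland.

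All values below are deposited log2 expression values, in the order of the library numbers, and the change is the finasteride mean minus the vehicle mean (log2) with its moderated standard error. Tests used limma over the 16 libraries with Benjamini-Hochberg adjustment over all 16506 genes, and a gene rose or fell where the adjusted p was under 0.05. The level of 1 gene cannot safely be set against that of another, since it is not given whether the table is per length. How the authors transformed the values is not given, so the changes and folds of low genes may be understated, and the group labels could not be checked against the data, so the direction of every change rests on them. Log2 totals of the wild-type libraries lay between 24.31 and 24.55, and the depth in reads is not given. The probasin gene Pbsn, a defining product of prostate luminal cells, lay at 18.08, 18.31 and 18.30 on vehicle and at 18.18, 17.50, 17.92, 18.12 and 18.32 on finasteride, so every library carried prostate epithelial RNA. The other defining luminal markers summed to 16.23, 16.41 and 16.30 on vehicle and to between 16.35 and 16.59 on finasteride.

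The libraries were not equally independent of each other. Vehicle library 3 lay within a residual SD of 0.0941 log2 of a mixture of vehicle libraries 1 and 2 in weights of 0.49 and 0.51, and finasteride library 4 within 0.0754 log2 of a mixture of finasteride libraries 3 and 5, in equal weights. Of the 16 libraries, 5 lay this close to such a mixture, so counts are also given over the 11 others, of which 6 are wild type. Seminal vesicle secretory genes summed to 21.69, 9.83 and 20.38 in the vehicle libraries and to between 9.41 and 14.30 on finasteride. Vehicle libraries 1 and 3 thus carried far more of this signal than vehicle library 2, and its part in the results was not tested. Since vehicle library 3 lay close to a mixture of vehicle libraries 1 and 2, it is not a second independent library with this signal.

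On finasteride, 3034 genes (18.4% of those tested) rose and 3585 (21.7%) fell, together 40.1%. The median change over all genes was -0.02. Large falls outnumbered large rises: 410 genes fell by more than 2 log2 units and 33 rose by as much. The 35.6% of genes whose 3 vehicle and 5 finasteride values did not overlap divided into 2775 higher and 3100 lower on the drug. Over the 11 libraries, 602 genes (3.65%) rose and 835 (5.06%) fell. The shares over all genes, 18.4% and 21.7% over 16 libraries and 3.65% and 5.06% over 11, are the background for the list counts below. The lists were chosen with earlier results of these data known, so a share above background is no independent support. Without vehicle library 1, 1931 genes rose and 2551 fell. Quantile normalization turned the balance, with 3695 (22.4%) higher and 2678 (16.2%) lower, so the count of rises against falls rests on the scaling.

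**Figure D1:**
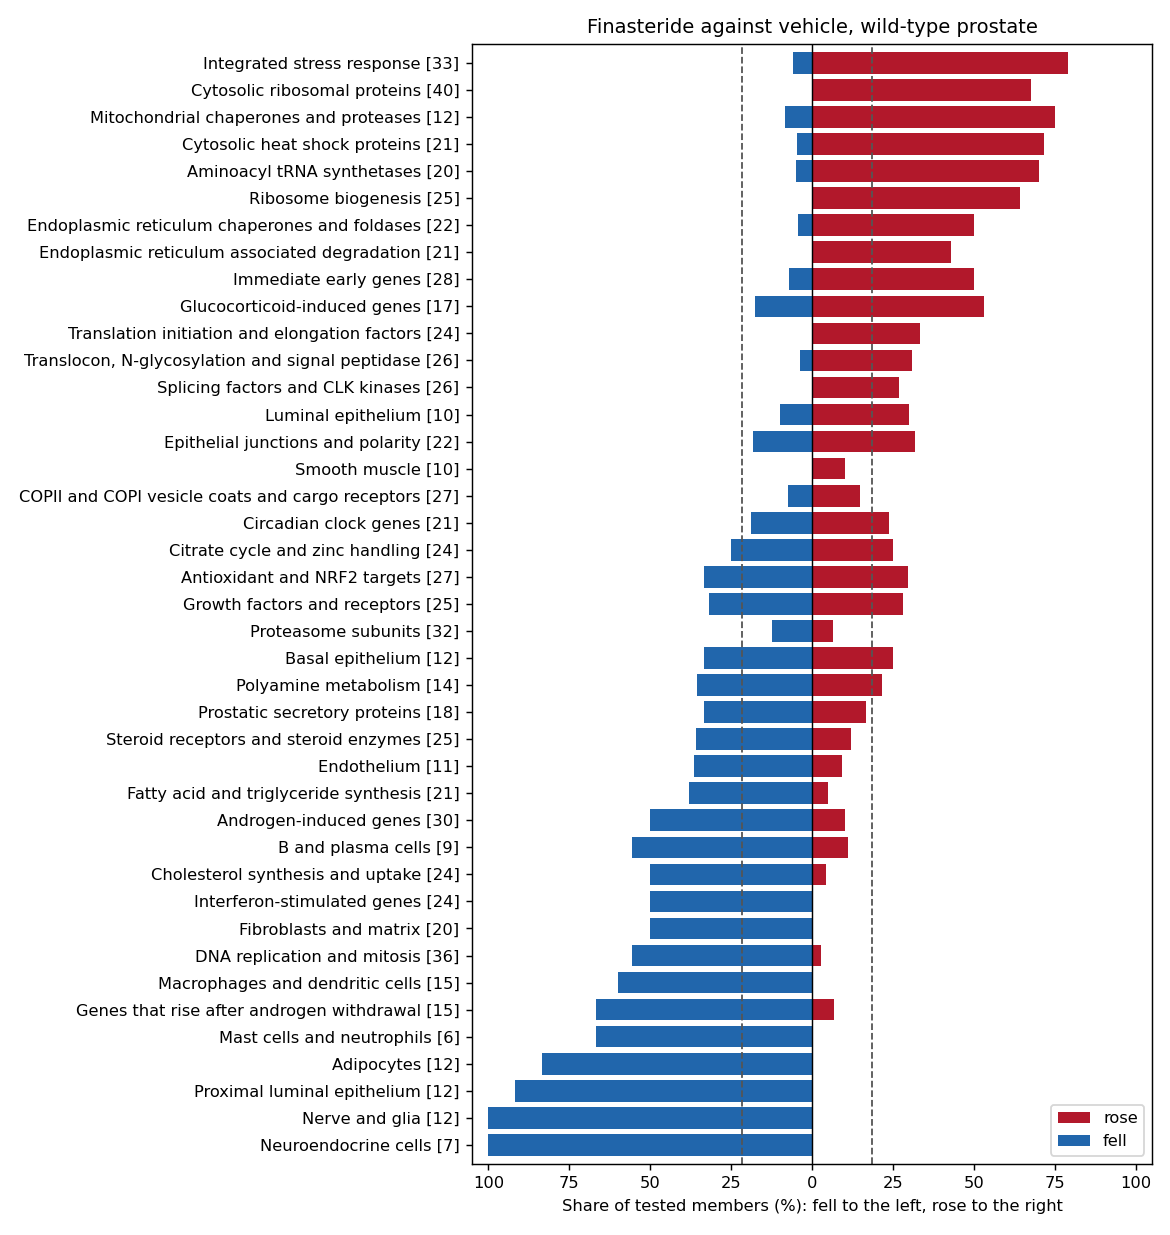
Share of each gene list's tested members that rose (right, red) or fell (left, blue) on finasteride in wild-type prostate, in percent, with the number tested in brackets; dashed lines mark the shares over all genes tested, 18.4% and 21.7%. The integrated stress response and the tRNA synthetases lie far to the right, at 78.8% and 70% risen, and the adipocyte and proximal luminal lists far to the left, at 83.3% and 91.7% fallen. Lists were chosen with earlier results of these data known.

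The drug's own targets were read first. Srd5a2, the 5-alpha-reductase of the prostate, lay at 7.61, 7.33 and 7.73 on vehicle and at 6.26, 6.76, 6.30, 6.20 and 5.63 on finasteride. Every finasteride library lay below every vehicle library, and the gene fell by 1.33 ± 0.20 (limma adjusted p = 2.25e-04, 0.0322 over 11 libraries). Srd5a1, the isoenzyme of liver and skin, had a difference of -0.27 ± 0.13 (adjusted p = 0.0915), and Srd5a3, which acts in protein glycosylation, one of -0.01 ± 0.09 (adjusted p = 0.958); neither passed. Among the 25 steroid receptors and enzymes tested, 3 rose (12%), 9 fell (36%) and 13 did not pass. Over 11 libraries 1 rose and 3 fell. Background shares were 18.4% risen and 21.7% fallen (3.65% and 5.06% over 11 libraries). Sult1e1, the sulfotransferase that inactivates oestrogen, had the lowest p of the list and fell by 1.59 ± 0.17 (adjusted p = 2.31e-05). Esr2, oestrogen receptor beta of the epithelium, fell by 1.15 ± 0.17 (adjusted p = 1.72e-04), whereas Esr1, oestrogen receptor alpha, rose by 0.38 ± 0.12 (adjusted p = 0.022), a call lost over 11 libraries (0.186), after quantile normalization (0.0689) and without vehicle library 2 or 3 (0.0609 and 0.0717).

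Genes known to be induced by androgen moved unevenly. Of 30 tested, 3 rose (10%), 15 fell (50%) and 12 did not pass. The median change was -0.23, and over 11 libraries 2 rose and 8 fell. Without finasteride library 1, 5 rose. Background shares were 18.4% risen and 21.7% fallen (3.65% and 5.06% over 11 libraries). Mme, which encodes the peptidase neprilysin, lay at 14.40, 14.05 and 14.29 on vehicle and at 11.79, 12.51, 12.10, 12.01 and 11.82 on finasteride, a fall of 2.20 ± 0.14 (adjusted p = 2.76e-07). No finasteride library came within 1 log2 unit of a vehicle library. Fkbp5, the co-chaperone of steroid receptors, lay at 13.00, 12.61 and 12.72 and at 10.36, 11.54, 11.93, 11.32 and 10.24; all 5 finasteride values were below the vehicle range, with libraries 1 and 5 the lowest (log2 -1.70 ± 0.30, adjusted p = 6.08e-04). Sord, sorbitol dehydrogenase, went the other way, from 11.11, 11.66 and 11.53 to 13.23, 12.54, 12.76, 12.89 and 12.98, with no overlap, a rise of 1.45 ± 0.14 (adjusted p = 1.24e-05). Acsl3, an acyl-CoA synthetase that androgen raises, rose by 1.75 ± 0.24 (adjusted p = 1.04e-04), with vehicle library 1 well below the other vehicle libraries (9.79, 11.24 and 10.89). Pbsn itself had a difference of -0.22 ± 0.22 (adjusted p = 0.449) on the deposited scale and of 0.72 (adjusted p = 0.0376) after quantile normalization, so its sign rests on the scaling. Of the 15 tested genes that are known to rise after androgen withdrawal, 1 rose, 10 fell and 4 did not pass (over 11 libraries, 1 rose and 4 fell). Clu, clusterin, a chaperone of dying and stressed epithelium, lay at 12.60, 12.73 and 12.61 on vehicle and 11.20, 11.46, 10.50, 10.92 and 11.27 on finasteride, a fall of 1.58 ± 0.16 (adjusted p = 1.62e-05). Ly6a, a surface antigen of proximal luminal cells, fell by 1.02 ± 0.11 (adjusted p = 2.28e-05). The sole riser of that list was Igfbp3, a binding protein of insulin-like growth factors, with 1.05 ± 0.18 (adjusted p = 5.90e-04).

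**Figure D2:**
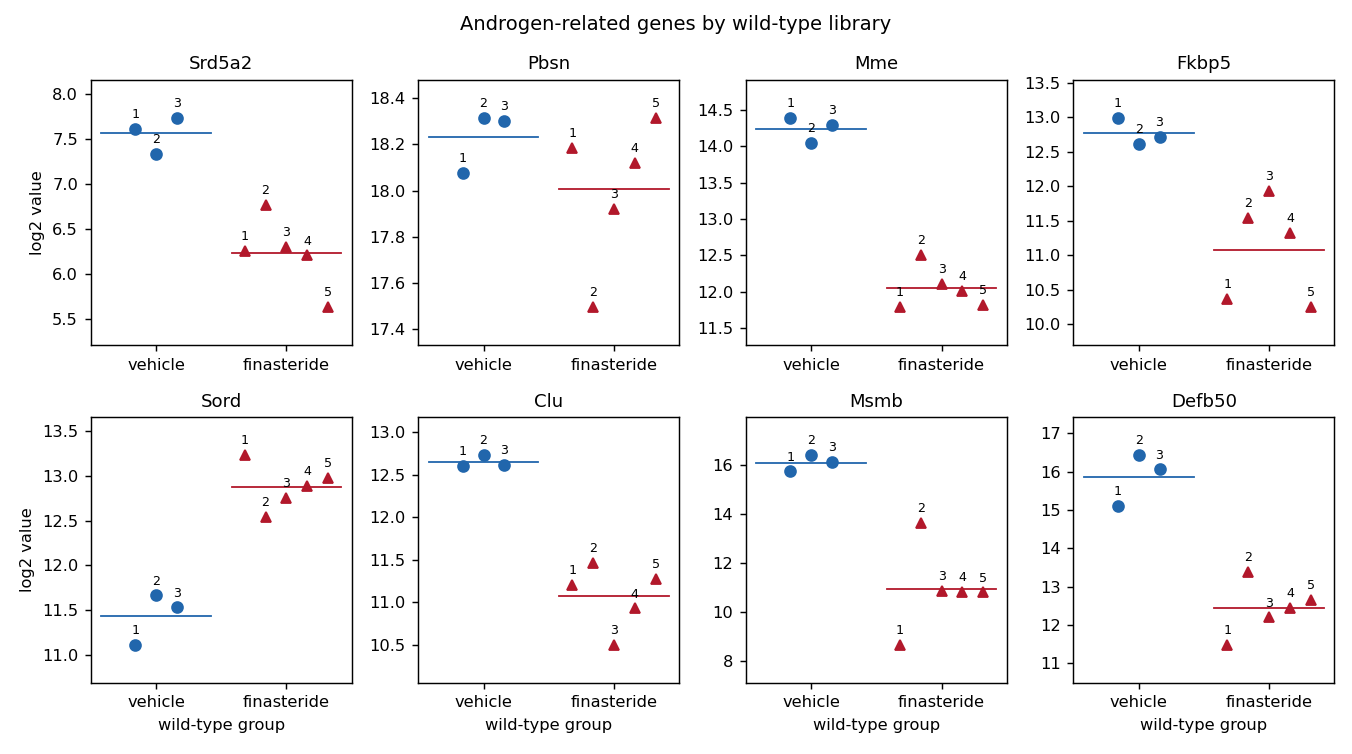
Deposited log2 value of 8 androgen-related genes in each wild-type library (circles, vehicle; triangles, finasteride; numbers are library numbers; short lines are group means). Mme, Srd5a2, Fkbp5, Clu, Msmb and Defb50 lie lower in all finasteride libraries than in any vehicle library, Sord lies higher, and Pbsn overlaps.

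Prostatic secretory genes had members on both sides of the test. Of 18 prostatic secretory proteins tested, 3 rose (16.7%), 6 fell (33.3%) and 9 did not pass (over 11 libraries, 3 fell). Without vehicle library 1 or finasteride library 1 or 5, 1 rose. The share risen is near the background of 18.4%, and the background share fallen is 21.7% (3.65% and 5.06% over 11 libraries). Msmb, beta-microseminoprotein of seminal fluid, lay at 15.73, 16.39 and 16.10 on vehicle and at 8.65, 13.62, 10.86, 10.82 and 10.79 on finasteride, 35-fold lower by group means (log2 -5.13 ± 0.67, adjusted p = 8.14e-05). Finasteride library 2 kept the highest value and library 1 the lowest, and no finasteride value reached a vehicle value. Defb50, a beta-defensin, lay at 15.11, 16.42 and 16.06 and at 11.48, 13.39, 12.20, 12.45 and 12.65, again without overlap (log2 -3.43 ± 0.40, adjusted p = 3.55e-05). Spink3, a trypsin inhibitor of seminal fluid, showed how unevenly the finasteride group behaved: it lay at 18.00, 17.73 and 17.84 on vehicle and at 7.97, 17.25, 16.67, 15.68 and 8.52 on finasteride, so libraries 1 and 5 were far below the other 3. Its fall of 4.64 ± 1.73 (adjusted p = 0.0442) did not pass over 11 libraries (0.167) or after quantile normalization (0.0984), nor without finasteride library 1 or 5 (0.087 and 0.0951) or any vehicle library (0.0863 to 0.111). Sbp, spermine binding protein, had the same libraries low and did not pass (-4.28 ± 1.86, adjusted p = 0.0786). In finasteride libraries 1 and 5, Pbsn lay at 18.18 and 18.32, against 18.08 to 18.31 on vehicle. The luminal markers summed to 16.59 and 16.58 in these 2 libraries, against 16.23 to 16.41 on vehicle. In bulk tissue, fewer secretory cells and less RNA per cell cannot be told apart, and the prostate lobe in each library is not given. The cause of the falls was not tested.

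Of the 12 genes with the largest falls by the naming rule, the other 10 were Car3, Nos1, Treh, H2-Q10, Nlrp10, Spink11, Hp, Adipoq, Syn2 and Ngfr. Treh, trehalase, lay at 8.28, 7.97 and 7.99 on vehicle and at 3.18, 5.08, 2.57, 3.70 and 0.86 on finasteride (log2 -5.0 ± 0.59, adjusted p = 4.31e-05). Nlrp10, an NLR family member, fell by 4.47 ± 0.57 and Spink11, a Kazal-type protease inhibitor, by 4.43 ± 0.76. Adipoq (adiponectin), Car3 (carbonic anhydrase III) and Hp (haptoglobin) are made by fat cells, and their falls of 4.08 ± 0.72, 5.09 ± 0.96 and 4.23 ± 0.61 were smallest in finasteride library 2: Adipoq lay at 8.23, 7.67 and 7.83 on vehicle and at 2.88, 6.98, 3.93, 2.64 and 2.73 on finasteride. H2-Q10, a class I-like gene, fell by 4.80 ± 0.92 with the same library nearest to vehicle. Nos1 (neuronal nitric oxide synthase), Syn2 (synapsin II) and Ngfr (the p75 neurotrophin receptor) are expressed in nerve, and their falls of 5.01 ± 0.71, 3.74 ± 0.45 and 3.53 ± 0.60 came with vehicle values that were lowest in library 1.

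**Figure D3:**
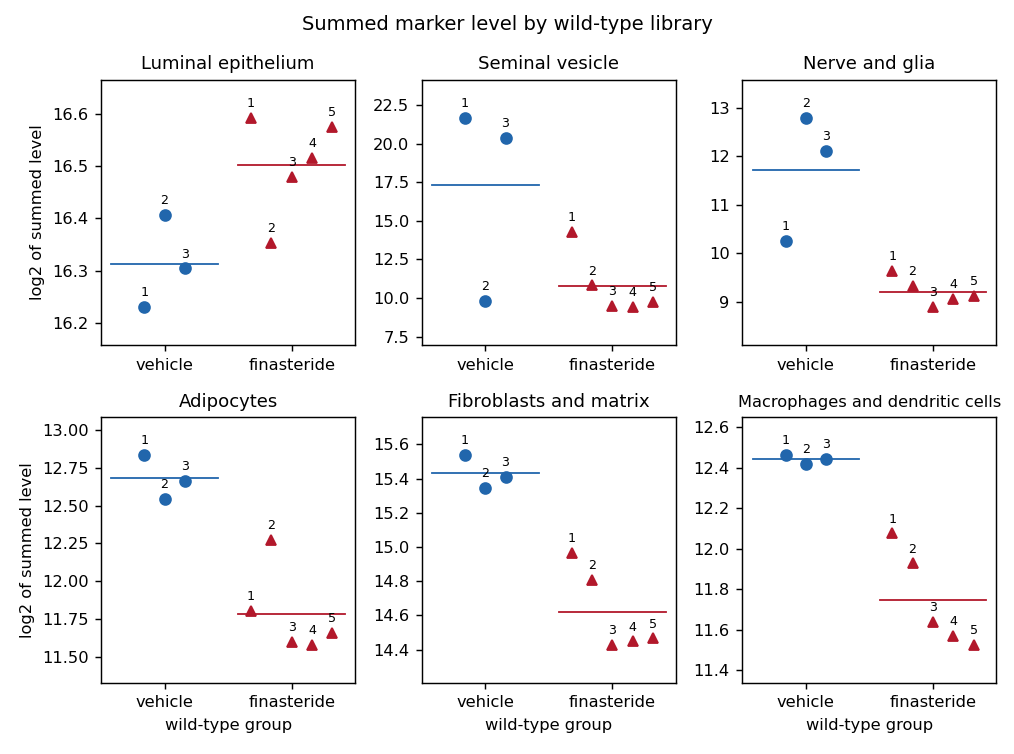
Summed log2 level of 6 marker lists in each wild-type library (circles, vehicle; triangles, finasteride; numbers are library numbers). Seminal vesicle genes are high in vehicle libraries 1 and 3, nerve genes in vehicle libraries 2 and 3, and adipocyte genes in the 3 vehicle libraries and finasteride library 2. Vehicle library 3 lay close to a mixture of vehicle libraries 1 and 2.

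Most of the integrated stress response genes and tRNA synthetases rose. Of 33 integrated stress response genes tested, 26 rose, 2 fell and 5 did not pass, that is 78.8% risen against 18.4% of all genes, with a median change of 0.79; over 11 libraries, 16 rose (background 3.65%). Slc7a1, the cationic amino acid transporter, had the lowest p of the list: it lay at 11.65, 11.77 and 11.71 on vehicle and at 12.67, 12.65, 13.09, 12.79 and 12.52 on finasteride, a rise of 1.03 ± 0.10 (adjusted p = 1.06e-05). Atf3, a transcription factor induced by stress, lay at 8.72, 8.81 and 8.75 and at 10.85, 9.89, 10.82, 10.64 and 10.33, a rise of 1.74 ± 0.17 (adjusted p = 1.42e-05). In both genes every finasteride library lay above every vehicle library. Ddit3, the pro-apoptotic factor CHOP, rose by 2.75 ± 0.34, and library 3 was the highest and library 5 the lowest of the finasteride values (11.44, 10.50, 12.12, 11.47 and 9.99). Trib3, a pseudokinase that damps ATF4 and AKT, and Chac1, which degrades glutathione, rose by 2.02 ± 0.29 and 2.06 ± 0.34. Adm2, a peptide of the calcitonin family and outside the list, rose by 2.26 ± 0.24, and Gdf15, a stress-induced cytokine of the TGF-beta family, by 2.38 ± 0.33. Of 20 aminoacyl tRNA synthetases, which charge tRNAs with amino acids, 14 rose, 1 fell and 5 did not pass (over 11 libraries, 9 rose). Cars and Nars, the cysteine and asparagine enzymes, led by p, with rises of 0.78 ± 0.07 and 0.47 ± 0.06; Cars lay at 10.76, 10.65 and 10.74 on vehicle and 11.48, 11.27, 11.65, 11.54 and 11.54 on finasteride, with no overlap.

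Fewer of the chaperone and degradation genes of the endoplasmic reticulum passed. Over all genes, 18.4% rose and 21.7% fell (3.65% and 5.06% over 11 libraries). Of 22 chaperones and foldases, 11 rose, 1 fell and 10 did not pass (over 11 libraries, 3 rose). Hyou1, an endoplasmic reticulum chaperone of the HSP70 class, lay at 13.28, 13.54 and 13.40 and at 14.69, 14.33, 15.19, 14.83 and 14.32, a rise of 1.27 ± 0.17 (adjusted p = 9.82e-05), and Atf6, the sensor itself, rose by 0.42 ± 0.06 (adjusted p = 1.81e-04). Hspa5, the chaperone BiP, lay at 15.38, 15.55 and 15.52 and 16.48, 16.21, 17.13, 16.70 and 16.14, with no overlap, and its rise of 1.05 ± 0.23 (adjusted p = 0.00237) did not pass over 11 libraries (0.0764). Of the 21 genes of endoplasmic reticulum associated degradation, 9 rose and the other 12 did not pass (over 11 libraries, 4 rose). Syvn1, the ubiquitin ligase that marks misfolded proteins, rose from 11.92, 12.25 and 11.98 to 14.28, 13.83, 15.07, 14.45 and 13.22, and Ern1, the IRE1 sensor, by 0.53 ± 0.06. Herpud1, a membrane component of the same machinery, rose by 1.77 ± 0.23 and Creld2, a folding factor, by 1.71 ± 0.30. Of 26 translocon, glycosylation and signal peptidase genes, 8 rose, 1 fell and 17 did not pass; none passed limma over 11 libraries, where 5 had an unadjusted p under 0.05, and after quantile normalization 5 rose and 4 fell. Vesicle coat and cargo receptor genes (27) had 4 risers and 2 fallers (over 11 libraries, 2 rose and 1 fell), and proteasome subunits (32) had 2 and 4 (over 11 libraries, 1 fell). The risers without vehicle library 1 numbered 7 among the chaperones, 2 among the translocon genes and 2 among the vesicle genes, and without finasteride library 2 the vesicle genes had 8. Translocon risers numbered 4 without vehicle library 3 and 5 without finasteride library 3 or 4.

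**Figure D4:**
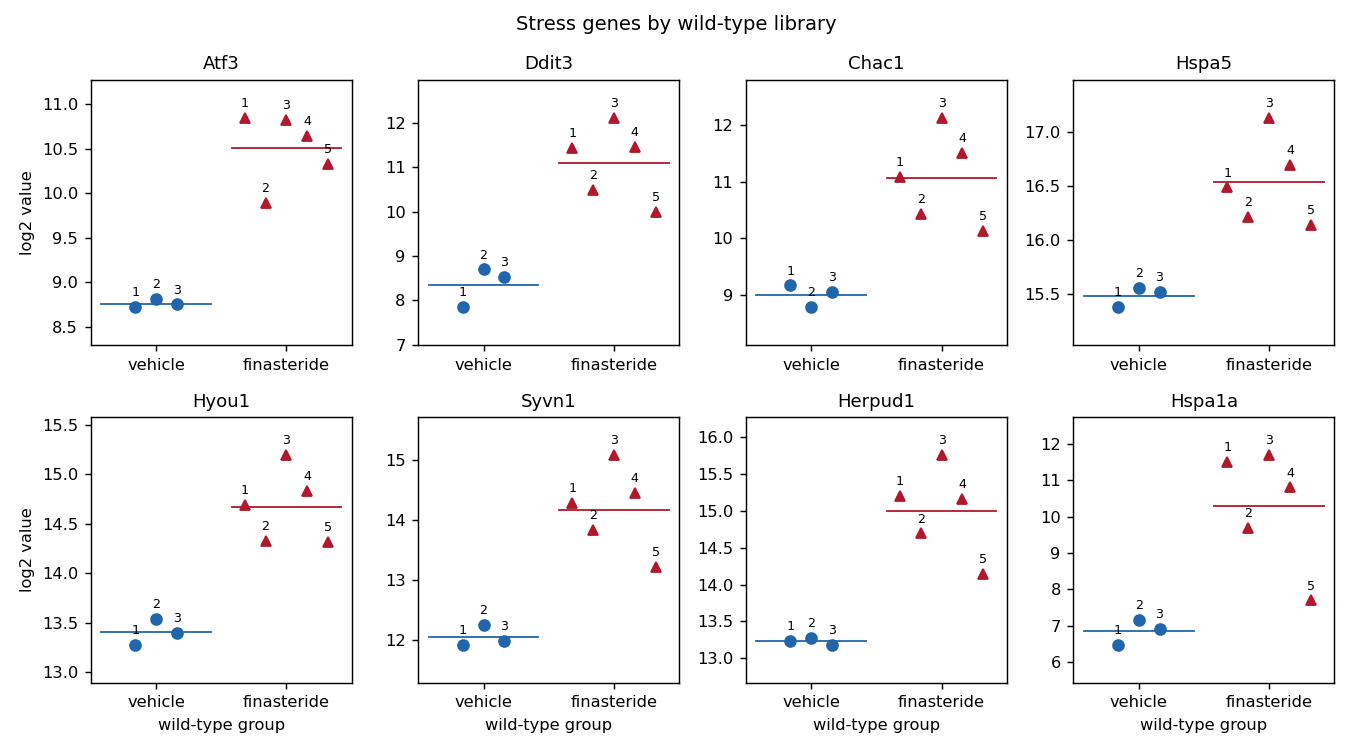
Deposited log2 value of 8 stress genes in each wild-type library (circles, vehicle; triangles, finasteride; numbers are library numbers; short lines are group means). In every panel all 5 finasteride libraries lie above the 3 vehicle libraries, and finasteride library 5 is the lowest of its group in every panel except Atf3.

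The promoters of stress genes were read for the motifs of these pathways. Mouse promoters (250 bases before to 50 bases after the start, RefSeq, build GRCm38.p6) were on hand for 11315 of the 16506 genes, and each motif was searched on both strands. The endoplasmic reticulum stress element, CCAAT followed after 9 bases by CCACG, was present in 8 of 2187 genes that rose (0.366%), 1 of 2556 that fell (0.0391%) and 19 of all (0.168%). The ATF4 site, TGATGCAA, was present in 15 genes that rose (0.686%), 19 that fell (0.743%) and 82 of all (0.725%). Of the genes that rose by more than 1 log2 unit, 4 of 162 held the stress element (2.47%): Creld2, Derl3, Hspa5 and Syvn1. The ATF4 site was in 4 of those 162 genes as well (2.47%). The promoters with the stress element are shown so that the element can be seen beside the values above, with capitals marking it and the 250 bases ending at the base before the start; in Creld2 and Derl3 it lies on the other strand.
Hspa5, chr2:34771840-34772089, strand +: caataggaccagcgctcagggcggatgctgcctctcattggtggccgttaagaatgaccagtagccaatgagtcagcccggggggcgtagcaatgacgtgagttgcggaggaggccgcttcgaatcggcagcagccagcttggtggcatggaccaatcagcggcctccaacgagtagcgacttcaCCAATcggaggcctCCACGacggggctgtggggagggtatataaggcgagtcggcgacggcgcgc
Creld2, chr15:88819396-88819645, strand +: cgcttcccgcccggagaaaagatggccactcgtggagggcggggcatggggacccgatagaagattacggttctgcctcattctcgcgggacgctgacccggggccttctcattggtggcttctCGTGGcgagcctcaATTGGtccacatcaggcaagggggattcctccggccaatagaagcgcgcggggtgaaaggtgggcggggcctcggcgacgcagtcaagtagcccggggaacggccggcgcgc
Syvn1, chr19:6046326-6046575, strand +: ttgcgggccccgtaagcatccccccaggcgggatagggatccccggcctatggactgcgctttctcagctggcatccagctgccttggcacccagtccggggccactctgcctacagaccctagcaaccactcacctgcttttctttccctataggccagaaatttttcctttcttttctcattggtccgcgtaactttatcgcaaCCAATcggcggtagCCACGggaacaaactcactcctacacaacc
Derl3, chr10:75893148-75893397, strand +: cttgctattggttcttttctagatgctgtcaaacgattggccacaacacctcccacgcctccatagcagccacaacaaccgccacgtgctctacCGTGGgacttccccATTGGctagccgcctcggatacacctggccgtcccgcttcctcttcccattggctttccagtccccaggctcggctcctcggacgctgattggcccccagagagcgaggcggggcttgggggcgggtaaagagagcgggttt
Derl3, a component of the degradation channel, rose by 1.37 ± 0.26 (adjusted p = 0.00114, 0.0529 over 11 libraries). The ATF4 site is shown for Chac1, Atf3 and Herpud1, 3 of the risers that hold it. In all 3 it lies on the other strand and so reads TTGCATCA in the letters shown.
Chac1, chr2:119350992-119351241, strand +: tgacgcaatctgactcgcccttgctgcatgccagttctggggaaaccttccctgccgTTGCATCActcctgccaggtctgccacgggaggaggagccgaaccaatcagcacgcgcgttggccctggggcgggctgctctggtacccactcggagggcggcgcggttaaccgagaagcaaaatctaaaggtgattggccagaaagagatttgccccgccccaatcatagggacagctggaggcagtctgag
Atf3, chr1:191183334-191183583, strand -: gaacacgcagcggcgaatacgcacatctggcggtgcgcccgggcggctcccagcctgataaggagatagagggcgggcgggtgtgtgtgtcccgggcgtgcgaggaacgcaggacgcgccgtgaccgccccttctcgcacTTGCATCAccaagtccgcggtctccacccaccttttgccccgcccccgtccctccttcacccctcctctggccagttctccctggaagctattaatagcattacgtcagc
Herpud1, chr8:94386179-94386428, strand +: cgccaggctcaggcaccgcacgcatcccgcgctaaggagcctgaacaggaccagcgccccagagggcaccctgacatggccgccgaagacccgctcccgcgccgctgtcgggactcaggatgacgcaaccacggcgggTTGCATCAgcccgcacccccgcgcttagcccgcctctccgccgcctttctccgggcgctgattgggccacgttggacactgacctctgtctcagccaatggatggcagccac
A match describes letters in this window and is not a bound site. The other motifs, TGACGTCA and the heat shock element (GAA, TTC and GAA spaced by 2 bases), were in 4.21% and 0.686% of genes that rose, against 3.4% and 0.583% of all.

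Most cytosolic heat shock genes rose as well. Of 21 tested, 15 rose, 1 fell and 5 did not pass, with a median change of 0.76 (over 11 libraries, 4 rose and 1 fell). Background shares were 18.4% risen and 21.7% fallen (3.65% and 5.06% over 11 libraries). Hspa1a, the inducible HSP70, gave the largest of the 12 named rises, from 6.47, 7.17 and 6.91 on vehicle to 11.52, 9.70, 11.69, 10.81 and 7.70 on finasteride (10.8-fold, adjusted p = 8.25e-04). Finasteride library 5 lay well below the other 4, and above all vehicle values. Hspa8, the constitutive HSC70, lay at 11.77, 12.46 and 12.10 and at 13.84, 13.61, 14.24, 13.71 and 12.83, with the same order of libraries, a rise of 1.54 ± 0.26 (adjusted p = 4.55e-04). Hsf1, the factor that drives the heat shock response, rose by 0.52 ± 0.09 (adjusted p = 3.89e-04). Of 12 mitochondrial chaperones and proteases, 9 rose, 1 fell and 2 did not pass (over 11 libraries, 1 rose): Afg3l2, a protease of the inner membrane, rose by 0.33 ± 0.05 and Hspd1, the chaperonin HSP60, by 0.62 ± 0.13, the latter not over 11 libraries (adjusted p = 0.0679). Of these, 5 rose without vehicle library 1.

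Genes of ribosome assembly and protein synthesis were read next, beside 18.4% risen over all genes and 3.65% over 11 libraries. Of 25 ribosome biogenesis genes, 16 rose and the other 9 did not pass (over 11 libraries, 2 rose). Nop2, an rRNA methyltransferase, and Polr1b, a subunit of RNA polymerase I, rose by 0.56 ± 0.10 and 0.60 ± 0.10. Among 40 ribosomal protein genes, 27 rose and the other 13 did not pass, with a median change of 0.62. None of them passed limma over 11 libraries, where 17 had an unadjusted p under 0.05, and without vehicle library 1 5 rose, without vehicle library 3 12, and without finasteride library 3 or 5 17. Rps2 lay at 10.81, 10.84 and 10.66 on vehicle and at 11.61, 11.30, 11.68, 11.76 and 11.78 on finasteride, with no overlap, and Rpl28 rose by 0.64 ± 0.15. Of 24 translation factors, 8 rose and the other 16 did not pass (over 11 libraries, 1 rose); Pabpc1, the poly-A binding protein, rose by 0.70 ± 0.08 and the helicase Eif4a1 by 0.40 ± 0.08, the latter not over 11 libraries (adjusted p = 0.0638). Of 26 splicing factors, 7 rose and the other 19 did not pass (over 11 libraries, 1 rose). With vehicle library 1 left out, 10 ribosome biogenesis genes and 4 translation factors rose, and without vehicle library 3 5 translation factors.

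Immediate early genes, which respond within minutes to growth and stress signals, rose in part. The shares over all genes were 18.4% risen and 21.7% fallen (3.65% and 5.06% over 11 libraries). Of 28, 14 rose, 2 fell and 12 did not pass (over 11 libraries, 8 rose). Jun, a component of the AP-1 factor, lay at 9.20, 9.58 and 9.42 on vehicle and at 11.19, 10.60, 10.90, 10.90 and 11.03 on finasteride, with no overlap, a rise of 1.53 ± 0.12 (adjusted p = 1.75e-06), and Nr4a2, an orphan nuclear receptor, rose by 1.17 ± 0.18. Of 17 genes induced by glucocorticoids, steroid hormones of the adrenal cortex, 9 rose, 3 fell and 5 did not pass (over 11 libraries, 8 rose and 2 fell). Per1, a clock repressor that glucocorticoids induce, rose from 9.77, 9.92 and 9.78 to 11.44, 11.10, 11.31, 11.04 and 10.71 and the metallothionein Mt2 by 1.03 ± 0.12, whereas Fkbp5, which is also on that list, fell. Sgk1, a kinase of salt transport, rose by 1.08 ± 0.16 (adjusted p = 2.23e-04). Of 21 circadian clock genes, 5 rose, 4 fell and 12 did not pass (over 11 libraries, 4 rose and 2 fell). The time of day of collection is not given in the sources used here.

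Among the other large risers, Grin2d, an NMDA receptor subunit, rose by 2.94 ± 0.42, Golt1a, a Golgi transport protein, by 2.58 ± 0.40, and Mt3, a metallothionein, by 2.50 ± 0.50. Etnk2, an ethanolamine kinase, rose by 2.42 ± 0.47, C1rb, a C1r-like protease, by 2.30 ± 0.42, Nkd1, an inhibitor of Wnt signalling, by 2.26 ± 0.29, Npy6r, a neuropeptide Y receptor, by 2.23 ± 0.37 and Fam222a by 2.21 ± 0.39. In each of these 8 genes the lowest vehicle value was in library 1. Grin2d, for example, lay at 6.61, 9.56 and 8.66 on vehicle and at 11.62, 10.88, 11.07, 11.19 and 11.30 on finasteride. Without vehicle library 1 the rise was 1.57 for Mt3 and 1.59 for Etnk2. Etnk2 passed over the 11 libraries with an adjusted p of 0.0387 and Grin2d with 0.0191. Hspa1a, Adm2, Ddit3 and Gdf15 are the others of the 12.

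Lipid, sterol, polyamine and growth factor genes were read by list. Over all genes, 18.4% rose and 21.7% fell (3.65% and 5.06% over 11 libraries). Of 24 cholesterol genes, 1 rose, 12 fell and 11 did not pass (over 11 libraries, 2 fell). Stard4, a cholesterol carrier, lay at 9.79, 9.69 and 9.92 on vehicle and at 8.08, 8.65, 8.44, 8.17 and 8.04 on finasteride, a fall of 1.52 ± 0.17 (adjusted p = 2.50e-05). Of 21 fatty acid and triglyceride synthesis genes, 1 rose, 8 fell and 12 did not pass (over 11 libraries, 3 fell): Scd1, the stearoyl-CoA desaturase, fell from 13.28, 13.29 and 13.27 to 12.33, 12.22, 12.48, 12.33 and 12.30, and Dgat2, the last enzyme of triglyceride synthesis, by 2.38 ± 0.22. Of 14 polyamine genes, 3 rose, 5 fell and 6 did not pass (over 11 libraries, 2 fell): Odc1, ornithine decarboxylase, which androgen is known to raise, fell from 11.42, 11.14 and 11.12 to 10.44, 10.32, 10.44, 10.42 and 10.25. Of 27 antioxidant genes, 8 rose, 9 fell and 10 did not pass (over 11 libraries, 3 rose and 2 fell), with Gpx2, a glutathione peroxidase, down by 2.0 ± 0.22 and Mt2 up. Of 24 citrate cycle and zinc genes, 6 rose, 6 fell and 12 did not pass (over 11 libraries, 4 fell). The 25% risen and 25% fallen are near the shares over all genes. Sucla2, a subunit of succinyl-CoA ligase, and Idh3a, an isocitrate dehydrogenase subunit, fell by 0.63 ± 0.08 and 0.51 ± 0.07. Of 25 growth factors and receptors, 7 rose, 8 fell and 10 did not pass (over 11 libraries, 2 rose and 3 fell): Igf1, insulin-like growth factor 1 of the stroma, fell from 10.28, 9.47 and 9.94 to 7.96, 7.86, 8.14, 8.12 and 8.10, with a gap between the groups, and Hgf, hepatocyte growth factor, by 1.60 ± 0.20. Without vehicle library 1, 5 fatty acid genes fell and 3 growth factor genes rose; leaving out any of vehicle libraries 2 and 3 and finasteride libraries 4 and 5 left 3 or 4 of these risers.

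Many markers of other cell types fell. The shares over all genes were 18.4% risen and 21.7% fallen (3.65% and 5.06% over 11 libraries). Of 12 adipocyte markers, 10 fell and the other 2 did not pass (over 11 libraries, 6 fell): Lep, leptin, lay at 5.59, 4.99 and 4.62 and 1.51, 2.57, 2.65, 1.40 and 2.68, and Retn, resistin, fell by 3.05 ± 0.39. Their summed level was 12.83, 12.55 and 12.66 on vehicle and 11.81, 12.27, 11.60, 11.58 and 11.66 on finasteride, with finasteride library 2 the nearest to vehicle. Of 20 fibroblast and matrix genes, 10 fell and the other 10 did not pass (over 11 libraries, 8 fell), led by Igf1 and the collagen Col6a3 (-2.07 ± 0.25); their sum was 15.54, 15.35 and 15.41 and 14.96, 14.81, 14.43, 14.45 and 14.47. Without finasteride library 1, 18 of the fibroblast genes fell. Of 12 nerve and glia genes, 12 fell (over 11 libraries, 3 fell), led by Ncam1, a neural adhesion molecule (-1.23 ± 0.18), and Uchl1, a neuronal deubiquitinase (-3.26 ± 0.55). Their sum was 10.25, 12.80 and 12.11 on vehicle and 9.64, 9.34, 8.89, 9.07 and 9.13 on finasteride, so the vehicle group held most of its signal in libraries 2 and 3. Vehicle library 3 lay close to a mixture of vehicle libraries 1 and 2, so it is not a second independent library with this signal. Of 7 neuroendocrine genes, 7 fell (over 11 libraries, 1 fell). Chga, chromogranin A, fell by 2.05 ± 0.35 and Scg2, a secretogranin, by 4.42 ± 0.87, the latter not over 11 libraries (limma adjusted p = 0.0603). The summed level of the neuroendocrine list was 7.56, 10.51 and 9.89 on vehicle and between 6.12 and 6.97 on finasteride. Vehicle libraries 2 and 3 thus held most of this signal, and vehicle library 1 lay nearest to the finasteride group. Here too, vehicle library 3 is not independent of vehicle library 2. Of 12 proximal luminal markers, 11 fell and the other 1 did not pass (over 11 libraries, 3 fell), led by Clu and Ly6a as above. Of 15 macrophage genes, 9 fell and the other 6 did not pass (over 11 libraries, 3 fell), with Mrc1, the mannose receptor, down by 1.16 ± 0.15 and Lyz2, lysozyme, by 1.12 ± 0.16; without vehicle library 1 or 3, 5 macrophage genes fell. Of 6 mast cell and neutrophil genes, 4 fell and the other 2 did not pass (over 11 libraries, 4 fell), with the mast cell chymases Cma1 and Mcpt4 down by 1.78 ± 0.25 and 2.11 ± 0.34. For the 9 tested genes of B and plasma cells the counts were 1 up and 5 down (over 11 libraries, 2 fell), with Igj, the antibody joining chain, down by 2.39 ± 0.27. Without vehicle library 3, 3 fell. Of the 11 genes listed, 8 had a mean under 3.32 over the wild-type libraries, so most of those tested passed the filter only through the mutant libraries. The summed level of the list lay between 11.30 and 11.40 on vehicle and between 11.24 and 11.92 on finasteride. Of 36 DNA replication and mitosis genes, 1 rose, 20 fell and 15 did not pass (over 11 libraries, 4 fell); Mcm6, a helicase subunit, and E2f1, a cell-cycle factor, fell by 1.32 ± 0.18 and 1.94 ± 0.34. Of 24 interferon-stimulated genes, 12 fell and the other 12 did not pass (over 11 libraries, 1 fell), led by the GTPase Irgm1 (-0.79 ± 0.14) and Ifit3 (-1.11 ± 0.20), which binds viral RNA. Other lists had members on both sides of the test or few calls. Luminal markers (10) had 3 risers and 1 faller, with 1 riser without vehicle library 1. Basal markers (12) had 3 risers and 4 fallers (over 11 libraries, 2 rose and 1 fell), with 5 risers without finasteride library 3. Among 10 smooth muscle genes, 1 rose and the other 9 did not pass. Over 11 libraries no luminal or smooth muscle gene passed limma, and 3 and 0 had an unadjusted p under 0.05. Endothelial genes (11) had 1 riser and 4 fallers (over 11 libraries, 1 rose and 1 fell); the fallers numbered 7 without finasteride library 1, 2 without vehicle library 1 and 1 without vehicle library 2. Junction and polarity genes (22) had 7 risers and 4 fallers (over 11 libraries, 2 rose), with 4 risers without vehicle library 1. The share of cell types in each library was not measured, and its part in the stress and androgen results was not tested.

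Over the 6 wild-type libraries alone, 54 genes passed (0.327%). List members among them included Jun, Mme, Odc1, Igf1, Gpx2, Sult1e1, Stard4 and Scd1, with Mme at an adjusted p of 0.0399. No member of the integrated stress response, tRNA synthetase, endoplasmic reticulum, heat shock, mitochondrial chaperone, ribosome biogenesis or ribosomal protein lists passed there. Adm2, outside these lists, did. Among the genes above that did not pass there, Atf3 had 0.0529 and Srd5a2 had 0.0746.

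Finasteride moved many of the same genes in the opposite direction in the homozygous mutant. The effect differed between genotypes for 27.1% of genes with a higher value in wild type and 29.4% with a lower one. Of all wild-type calls, 5480 (82.8%) differed from the mutant by this test. The wild-type change that selected these genes is also part of the tested difference, so this share is not independent of the selection. There were 1308 genes that rose in wild type and fell in the mutant and 2002 that did the reverse, against 142 that rose and 288 that fell in both. The integrated stress response list had a median change of 0.79 (wild type) against -0.35 (mutant), and the androgen-induced list -0.23 against -0.06. Atf3 lay at 9.46 ± 0.08 (mean ± SD, n = 3) in mutant vehicle and 8.48 ± 0.19 (n = 5) in mutant finasteride libraries, against 8.76 ± 0.05 (n = 3) and 10.50 ± 0.40 (n = 5) in wild type. The mutant vehicle mean thus lay between the means of the wild-type groups. Its change of -0.98 ± 0.17 in the mutant (adjusted p = 3.01e-04) differed from that in wild type by 2.73 ± 0.24 (adjusted p = 6.26e-07). Srd5a2 rose in the mutant by 0.85 ± 0.20 (adjusted p = 0.00285), a difference between genotypes of -2.17 ± 0.28 (adjusted p = 1.76e-05). Pbsn, which did not pass in wild type, fell in the mutant with -4.61 ± 0.22 (difference 4.39 ± 0.32, adjusted p = 8.78e-08). The largest differences in favour of wild type were in Ren1 (renin), Pnliprp1 (a pancreatic lipase-related protein), Fut9 (a fucosyltransferase), C1rb, Olfm4 (olfactomedin 4) and Mt3, and the largest in favour of the mutant in Svs2 (a seminal vesicle protein), Sbp, Scgb2b7 and Scgb2b20 (secretoglobins), Pate4 and Mug1 (a proteinase inhibitor). Ren1 differed by 8.82 ± 2.07 and Svs2 by -13.75 ± 3.31; over 11 libraries the differences of Svs2 and Pate4 did not pass (adjusted p = 0.094 and 0.126). In the mutant, Svs2 lay between 11.31 and 13.31 on vehicle and between 11.52 and 21.17 on finasteride. It was the top gene of mutant finasteride libraries 1, 3, 4 and 5, with 12.6%, 11.2%, 8.18% and 6.07% of the summed values. This ranking of genes holds only on the deposited scale. The part of this seminal vesicle signal in the differences between genotypes was not tested. In wild type, Ren1 lay at 7.84, 16.58 and 15.65 on vehicle and Svs2 at 19.94, 8.01 and 18.60. Vehicle library 1 was thus the lowest in Ren1, and libraries 1 and 3 were high in Svs2. Vehicle library 3 lay close to a mixture of vehicle libraries 1 and 2. Without vehicle library 1 the wild-type change was 1.55 for Ren1 (adjusted p = 0.208) and -4.96 for Svs2 (0.151), and without vehicle library 2 it was -10.92 for Svs2. Without vehicle library 3 the adjusted p for Svs2 was 0.123, and without finasteride library 1 or 5 that for Ren1 was 0.0546 and 0.0534. Whether the labels of both genotypes are right could not be checked, and the cause of the opposite directions was not tested.

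**Figure D5:**
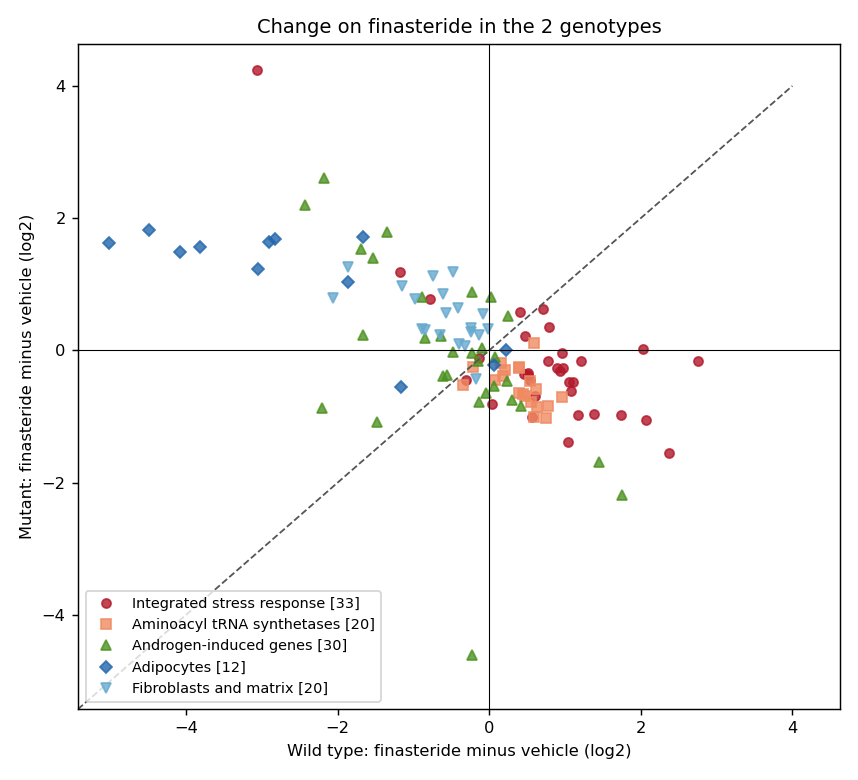
Change on finasteride (log2) in wild type (x) and in the mutant (y) for the tested members of 5 lists; the dashed diagonal marks equal change. Integrated stress response and tRNA synthetase genes lie mostly to the right of 0 and below it, with medians of 0.79 and -0.35 for the first, and adipocyte genes to the left.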

How the data were processed

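The authors deposited 1 table of normalized log2 expression values for poly-A TruSeq libraries sequenced on a HiSeq2000, per the labels. Tools listed in the submitters' processing notes are DESeq, DESeq2, Cufflinks, TopHat and CASAVA 1.8.2, on mm9; which made the table is not given in the sources used here. The log base was inferred from the totals. Groups came from the labels, whose running numbers pair nothing. Group means were fitted with limma 3.58.1 in R 4.3.3 (eBayes with a trend). Genes under a mean log2 value of 3.32 over the 16 libraries were left out.

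Members and gene lists (56, matched by symbol for 1110 of 1113 entries) were chosen with earlier results of these data known. The naming rule took 12 genes each way by size of change, among genes of at least log2 of 50, past the threshold also over 11 libraries, without overlap and without predicted models. It added the steroid reductases, Pbsn, Fkbp5, list members by role and the extremes of the difference between genotypes; some genes it names are not reported here. A library was set aside as mixture-like where a mixture of 2 others of its group, both weights over 0.2, left a residual SD under 0.1 over genes at log2 8 or more. Marker levels are log2 of the summed values taken out of log2. The fit was tested on simulated data with known changes. The simulated libraries were independent, unlike the mixture-like ones here, so this cannot show the error rate for these libraries. Alternatives were filters, pseudocounts, normalizations, moderation, weights, sample choice and leaving out each library.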

Additional observations from a re-analysis of the deposited data

Results flagged for a closer look

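Among the 5 finasteride libraries, 1 library lay apart from the others by Dixon's criterion for 3 of 103 named genes, about 1 in 20 being what chance flags: Gdf15 at 8.33 in finasteride library 2, Atf6 at 12.85 in finasteride library 1 and Fut9 at 11.68 in finasteride library 1. The finasteride effect differed between wild type and mutant, by the interaction term in limma at an adjusted p under 0.05, for 101 of the 103 named genes; values are the wild-type change minus the mutant change (log2).

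The difference was positive for 50 genes. The highest were Ren1 (8.82), Pnliprp1 (7.42), Fut9 (6.16), C1rb (5.97), Olfm4 (5.63), Mt3 (5.27), Fam222a (4.74), Golt1a (4.44), Pbsn (4.39), Npy6r (4.27), Acsl3 (3.94), Gdf15 (3.94), Derl3 (3.58) and Creld2 (3.55). Next came Grin2d (3.34), Nkd1 (3.16), Hspa1a (3.15), Sord (3.13), Chac1 (3.11), Syvn1 (2.94), Ddit3 (2.90), Atf3 (2.73), Adm2 (2.58), Herpud1 (2.56), Etnk2 (2.49), Slc7a1 (2.42), Hyou1 (2.31) and Hspa8 (2.14). Lower values were those of Hspa5 (2.06), Trib3 (2.0), Atf6 (1.86), Nr4a2 (1.83), Mt2 (1.76), Jun (1.72), Pabpc1 (1.69), Cars (1.62), Per1 (1.61), Ern1 (1.48), Esr1 (1.47), Sgk1 (1.43), Rps2 (1.19), Igfbp3 (1.19), Nars (1.16), Hspd1 (1.06), Polr1b (0.93), Rpl28 (0.86), Nop2 (0.84), Hsf1 (0.72), Afg3l2 (0.58) and Eif4a1 (0.55).

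It was negative for 51 genes. The lowest were Svs2 (-13.75), Sbp (-12.82), Scgb2b7 (-12.65), Pate4 (-12.59), Mug1 (-12.54), Scgb2b20 (-11.92), H2-Q10 (-8.67), Igj (-8.58), Msmb (-8.53), Spink11 (-7.97), Scg2 (-7.34), Syn2 (-7.22), Car3 (-6.59) and Treh (-6.40). Next came Hp (-6.34), Uchl1 (-6.19), Adipoq (-5.56), Ngfr (-5.52), Gpx2 (-4.57), Lep (-4.54), Retn (-4.29), Nlrp10 (-4.18), Chga (-3.85), Dgat2 (-3.77), Nos1 (-3.74), Defb50 (-3.53), Sult1e1 (-3.49) and Fkbp5 (-3.24). Values nearer to 0 were those of Igf1 (-3.11), Clu (-3.03), Ly6a (-2.92), Mcpt4 (-2.92), Col6a3 (-2.86), Cma1 (-2.75), Ifit3 (-2.41), Mrc1 (-2.32), Srd5a2 (-2.17), E2f1 (-2.11), Lyz2 (-2.05), Scd1 (-1.75), Mcm6 (-1.58), Stard4 (-1.53), Esr2 (-1.43), Hgf (-1.36), Mme (-1.33), Ncam1 (-1.17), Idh3a (-1.06), Irgm1 (-1.05), Odc1 (-1.04), Srd5a1 (-0.62) and Sucla2 (-0.34). These genes were chosen partly for their change in wild type, and the causes of the differences were not tested.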

How the results depend on the processing

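No paired analysis was possible because the labels give only running numbers, which no 2 groups share. Against 6619 genes that passed in all libraries, 1437 passed without the mixture-like libraries (602 higher, 835 lower), 54 on the remaining wild-type libraries alone (22 higher, 32 lower) and 11000 with limma array weights (5222 higher, 5778 lower); the first pair have fewer samples. Leaving out 1 wild-type library at a time gave 4482 to 7546 genes, 1931 to 3545 higher and 2551 to 4001 lower. The genes whose effect differed between genotypes numbered 9339 in all libraries and 4843 without the mixture-like ones. All 602 risers and 835 fallers of the 11-library fit were also called over the 16 in the same direction. A median shift moved the share of calls that are higher from 45.8% to 55.30% and quantile normalization to 58%. Of 99 named genes that passed, 18 missed the threshold over 11 libraries, 90 over the 6 wild-type ones and 8 when some single library was left out, with no reversal in direction. Leaving out vehicle library 1 or 2 kept vehicle library 3, which lay close to a mixture of both. Counts without 1 library may therefore understate how far calls rest on single libraries. Of 37 list counts of 5 or more, 12 moved by over 1.5 times without some single library. Of the named genes that had not passed, 3 changed sign: quantile normalization gave 0.72 for Pbsn and 0.0617 for Srd5a1, and Srd5a3, which lies near 0, was 0.016 without mixture-like libraries, 0.016 on the 6 wild-type libraries, 0.0024 after quantile normalization, 0.0593 after a median shift and between -0.0675 and 0.0499 with single libraries left out. The causes were not tested. Read depth is not given, so counting error cannot be set beside low values.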
